A study of Mus musculus with 12 samples.

Results

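Collagen genes were followed in the hippocampus of mouse pups, in 12 RNA-seq libraries. They were taken as the rows of the deposited table whose symbol is Col, a number, the letter a and a number, which gave 44 of the 29454 genes of the table: 11 fibrillar collagens, 6 type IV collagens of basement membranes and 27 others. One further symbol that begins in the same way, Col4a3bp, names a ceramide transport protein and was left out. The 3 WT libraries came from wild-type littermates. Pups of the 3 CAMK libraries carried CaMKIIα-tTA, a driver in which the promoter of a kinase of forebrain neurons makes the tetracycline transactivator. Those of the 6 CX3CL1-ct libraries carried CaMKIIα-tTA together with Tg-CX3CL1-ct, which encodes the C-terminal end of the neuronal chemokine CX3CL1. Strain is given as C57/BL6 for all groups, the Tg-CX3CL1-ct line having been crossed to C57BL/6J for 6 generations, and the age is postnatal day 4 in the sample labels and day 0 in the design text. The transgene is thus driven only in cells in which the driver is active, and no label ties each library to its own animal, which leaves the p-values as a measure of the spread between libraries.

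Collagens are secreted proteins of 3 chains wound into a triple helix, in which glycine returns at every 3rd residue because only its small side chain fits the centre of the helix. Fibrillar collagens such as types I and III pack into the tensile fibrils of connective tissue. Type IV forms the network of basement membranes, and the remaining types sit on fibrils, form beaded filaments or span the cell membrane. In the brain, fibrillar collagens belong mainly to the meninges and the larger vessels, and type IV to the basement membrane around the vessels and under the meninges.

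The coding sequences show this division, independently of any expression value. In the longest annotated coding sequence of each gene (GENCODE M21, GRCm38.p6), runs of at least 5 triplets with a glycine codon at every 3rd codon were counted. The longest run held 216 to 344 triplets in the 11 fibrillar genes (median 338), 39 to 66 in the 6 type IV genes and 23 to 113 in the other 27. The number of runs was 2 to 3 per fibrillar gene and 22 to 27 per type IV gene, so the type IV helix is broken many times. In the other 27 it was 2 to 21, from as few as in fibrillar genes to 21 in Col16a1, close to type IV. Stretches of 24 codons are shown for the genes that the results turn on, 5′ to 3′, with the glycine codons of the runs in capitals. The first 4 lie inside the longest run of the gene and the last pair cross an interruption.
Col1a1, codons 663 to 686: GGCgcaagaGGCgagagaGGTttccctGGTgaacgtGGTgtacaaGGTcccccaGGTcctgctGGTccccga
Col1a2, codons 592 to 615: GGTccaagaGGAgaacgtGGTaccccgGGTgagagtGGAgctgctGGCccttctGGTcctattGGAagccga
Col3a1, codons 668 to 691: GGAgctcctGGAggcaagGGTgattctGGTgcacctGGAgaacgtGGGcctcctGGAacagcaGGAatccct
Col6a5, codons 1484 to 1507: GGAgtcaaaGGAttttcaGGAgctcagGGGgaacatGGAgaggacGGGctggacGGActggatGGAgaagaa
Col4a1, codons 323 to 346: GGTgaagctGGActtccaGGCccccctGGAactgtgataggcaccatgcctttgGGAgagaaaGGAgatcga
Col4a2, codons 436 to 459: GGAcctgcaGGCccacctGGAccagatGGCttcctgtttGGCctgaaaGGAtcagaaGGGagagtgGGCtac

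**Figure D1:**
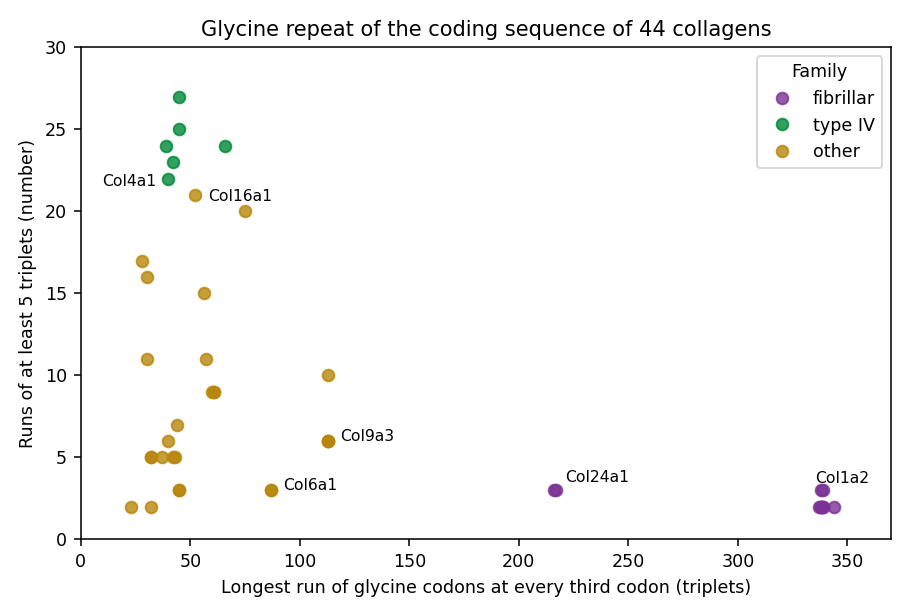
Number of glycine runs of at least 5 triplets (y axis) against the longest run in triplets (x axis) in the coding sequence of each of the 44 collagen genes (points, coloured by family). Fibrillar genes lie at 216 to 344 triplets with 2 to 3 runs, type IV genes at 39 to 66 with 22 to 27, and the others at 23 to 113 with 2 to 21.

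Col4a1 and Col4a2, whose products join in one trimer, lie head to head on chromosome 8. The annotated start of Col4a1 (minus strand) is at base 11312826 and that of Col4a2 (plus strand) at base 11312805, so that both transcripts cover 22 bases, in capitals here with 4 bases on either side.
chr8:11312801-11312830, GRCm38.p6, plus strand: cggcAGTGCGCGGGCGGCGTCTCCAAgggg
Upstream windows of 250 bases from RefSeq (GRCm38.p6) were matched for 35 of the 44 genes, with 38 windows. The letters GGGCGG, a core of the GC box, were found on either strand in 22 of these windows (57.9%) and in 32.7% of all 32851 windows, and CCAAT in 13 (34.2%) and 33.8%. The windows of a gene pair such as Col4a1 and Col4a2 share bases, and a match describes these letters only.

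The values are the authors' FPKM, fragments counted per kilobase of a transcript and adjusted for the size of the library. Short genes, whose lowest FPKM marks 1 fragment, put the depth at about 11600000 to 16000000 fragments per library. Between libraries of a group, the SD of the log2 ratio over 5998 genes was 0.120 to 0.135 among CX3CL1-ct 1, 2 and 3 and 0.147 to 0.350 in the other pairs. Those 3 libraries thus lie closest together, and whether they are separate samples was not tested, since the table holds no counts. Markers of hippocampal neurons were present in all 12 libraries, with a summed FPKM of 182 in CX3CL1-ct 5 and 288 to 398 in the others. Of the 10, Spock1 was called higher in CAMK than in WT (35.3 to 37.8 against 21.8 to 23.7 FPKM, adjusted p = 0.0291) and Bcl11b lower (24.8 to 31.7 against 37.8 to 58.1, 0.0397, and 0.0559 with the replicate block), and both calls ended without WT 2 or 3, CAMK 2 or 3, or CX3CL1-ct 2 or 3 (0.0553 to 0.182), that of Spock1 also without CAMK 1 (0.0842) and that of Bcl11b without CX3CL1-ct 1 (0.0695). Markers of striatal neurons, a neighbouring tissue, summed to 272 in WT 2, 192 in WT 3 and 205 in CX3CL1-ct 5 and to 34.2 to 67.7 in the rest, with the smallest p for Adora2a and Ppp1r1b, neither past the threshold. Without WT 1, which had the lowest striatal sum, the log2 difference of Bcl11b between CAMK and WT was -0.96, against -0.79 with all libraries. The part of that tissue in the Bcl11b values was not tested. Choroid plexus markers summed to 324 to 2388 in WT, 117 to 935 in CAMK and 172 to 658 in CX3CL1-ct, and none of 11 passed, with the smallest p for Cldn2 and Clic6. In bulk tissue, fewer cells of a type and less RNA per cell cannot be told apart.

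The summed fibrillar collagen RNA was lowest in WT, and Col1a2 and Col3a1 were its most abundant members. The summed FPKM of the 11 fibrillar genes was 39.7, 34.4 and 35.4 in WT 1, 2 and 3, 44.3, 49.9 and 50.3 in CAMK 1, 2 and 3, and 46.6 to 82.7 in CX3CL1-ct (median 64.2). No WT library reached any library with the driver, while CAMK and CX3CL1-ct overlapped. The type IV sum was 29.8 to 42.9 in WT, 40.5 to 47.3 in CAMK and 36.0 to 56.5 in CX3CL1-ct, and all groups overlapped. The sum of the other 27 collagens was 57.6 to 64.3, 56.4 to 60.7 and 54.6 to 75.5. As a share of all collagen FPKM, fibrillar genes held 27.0 to 28.3% in WT, 29.9 to 33.0% in CAMK and 30.6 to 38.5% in CX3CL1-ct. The type IV share was 24.5 to 29.2%, 26.8 to 32.0% and 23.7 to 30.8%, with no such order. These sums are a description of chosen members and carry no test. Without Col1a2, the fibrillar sum was 27.1 to 30.3 in WT, 31.1 to 36.5 in CAMK and 33.1 to 55.0 in CX3CL1-ct. Col3a1 stayed in that sum. Of the 9 tested fibrillar genes, 5 were higher and 4 lower in each comparison with WT, so the order of the sums is not one of all members.

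**Figure D2:**
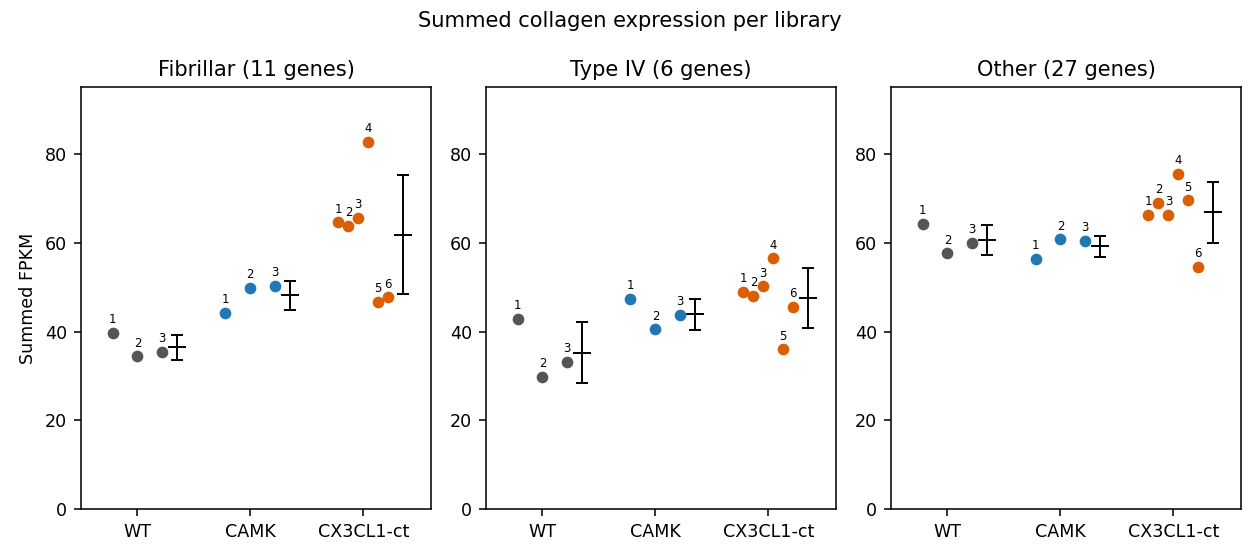
Summed FPKM (y axis) of fibrillar, type IV and other collagens by group (x axis), with 1 point per library, numbered by replicate, and the mean ± SD beside the points. The fibrillar sum was 34.4 to 39.7 in WT, below all 9 libraries with the driver, which held 44.3 to 82.7.

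Of the 44 collagens, 29 reached 1 FPKM in 3 or more libraries and were tested with all 16503 such genes: 9 fibrillar, 4 type IV and 16 other. Fold changes are differences of log2(FPKM + 1), which understate the change of low genes, and the threshold is an adjusted p of 0.05 in limma over all genes tested. Against CAMK, which asks what the transgene adds to the driver, 0 of the 29 passed in CX3CL1-ct, where 0.0606% of all genes did (0.0121% higher and 0.0485% lower), and 2 had an unadjusted p under 0.05, against 6.37% of all genes. Against WT, where 0.454% of all genes passed in CX3CL1-ct, 1 collagen rose (Col1a2, with 0.200% of all genes called higher) and 1 was called lower (Col6a5, with 0.254% of all genes called lower). Col6a5 passed the filter on low values only through the 3 WT libraries, where it is high, and a gene kept in this way had to differ, so its calls and its lack of overlap are a description and nothing is read from them against the shares of all genes. Between CAMK and WT, the comparison of the driver alone, 0.358% of all genes passed. Col6a5 was again called lower, with 0.273% of all genes, and 0 rose, with 0.0848% of all genes called higher. The replicate number was also fitted as a block over all 12 libraries, where CX3CL1-ct 4, 5 and 6 each stood alone and added nothing. The correlations between same-numbered libraries met this pairing for CAMK with WT but not for CX3CL1-ct. With the block, 3 passed in CAMK against WT: Col1a2 was higher (adjusted p = 0.0139), and Col6a5 and Col9a3 were lower (0.0460 for Col9a3). With the same block 2.97% of all genes passed (1.87% higher and 1.10% lower). At an unadjusted p under 0.05, 15 of the 29 differed between CX3CL1-ct and WT, 13 of them higher, against 12.3% of all genes, and 10 between CAMK and WT, 8 of them higher, against 12.4%. Both counts include Col6a5, and the 13 include Col4a6. Col4a6 reached 1 FPKM in 1 WT, 3 CAMK and 5 CX3CL1-ct libraries, so it passed the filter only with the groups where it is high. Nothing is read from either gene against these shares. The comparisons with WT share the WT libraries, and those of CX3CL1-ct share the CX3CL1-ct libraries.

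Among fibrillar collagens, the 5 tested chains of types I, III and V had higher means in CX3CL1-ct than in WT, and Col1a2 passed the test. The untested type V chain Col5a3 had a mean of 0.367 FPKM in WT and 0.314 in CX3CL1-ct. Col1a2 (chromosome 6, 4504814 to 4541544), which encodes the α2 chain of type I collagen, stood at 9.39, 7.33 and 8.16 FPKM in WT, at 13.2, 13.4 and 14.0 in CAMK and at 11.7 to 27.7 in CX3CL1-ct (median 19.4). All 9 libraries with the driver were above all WT libraries, and CX3CL1-ct 5 alone fell below CAMK. Against WT, the log2 difference was 1.06 in CX3CL1-ct (SE 0.20, adjusted p = 0.0420) and 0.65 in CAMK (SE 0.23, adjusted p = 0.271, and 0.0139 with the replicate block). CX3CL1-ct exceeded CAMK by 0.41 (SE 0.20, adjusted p = 0.775). The call against WT ended without any 1 WT library (adjusted p 0.0717 without WT 1, 0.239 without WT 2 and 0.184 without WT 3), without CAMK 1, 2 or 3 (0.0611, 0.0672 and 0.0779), whose libraries enter the shared spread, and without CX3CL1-ct 1, 2 or 3 (0.102, 0.106 and 0.107). It also ended with CX3CL1-ct 1 to 3 averaged (0.243), with all genes unfiltered (0.0554), with median-of-ratios scaling (0.0583) and with only the groups compared in the fit (0.109). Over all alternatives run the log2 difference itself stayed between 0.94 and 1.18.

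Col3a1 (chromosome 1, 45311538 to 45349706), the single chain of type III collagen, was close to Col1a2 in every library. It stood at 10.9, 5.22 and 7.04 FPKM in WT, 11.6, 13.1 and 13.4 in CAMK and 10.7 to 27.3 in CX3CL1-ct (median 19.8). CX3CL1-ct 6, at 10.7, lay just below WT 1, so these groups overlapped. The log2 difference between CX3CL1-ct and WT was 1.14 (SE 0.27, adjusted p = 0.0972), and it passed without CX3CL1-ct 6 (1.27, adjusted p = 0.0443). It was 0.92 without WT 2 (adjusted p = 0.389). The FPKM ratio of Col3a1 to Col1a2 was 0.712 to 1.16 over the 12 libraries.

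Col1a1 (chromosome 11, 94936224 to 94953042), the α1 chain that supplies 2 of the 3 chains of a type I trimer, overlapped between all groups. It stood at 4.09, 6.18 and 4.97 FPKM in WT, 3.998, 6.02 and 5.63 in CAMK and 4.89 to 8.17 in CX3CL1-ct (median 6.36). The log2 difference was 0.30 between CX3CL1-ct and WT (95% interval -0.04 to 0.63, adjusted p = 0.460), and 0.03 for CAMK (adjusted p = 0.970). The ratio of Col1a2 to Col1a1 was 1.19 to 2.29 in WT, 2.23 to 3.29 in CAMK and 2.06 to 3.39 in CX3CL1-ct. Col5a2, a chain of the type V collagen that nucleates fibrils, stood at 3.25 to 3.68 FPKM in WT, 4.63 to 5.34 in CAMK and 4.07 to 6.90 in CX3CL1-ct, without overlap with WT (log2 difference 0.57, SE 0.14, adjusted p = 0.124), and it passed without CX3CL1-ct 5 (0.64, adjusted p = 0.0397). The Col5a2 difference was 0.54 without WT 2 (adjusted p = 0.393). Its partner Col5a1 stood at 1.67 to 2.91, 2.52 to 3.55 and 2.04 to 4.30 FPKM. Exons on the opposite strand overlap Col5a1, and whether counting used strand is not stated.

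The fibrillar chains of cartilage types II, XI and XXVII had log2 differences from WT of -0.22 to -0.04 in CX3CL1-ct, none past the threshold. Col11a1 stood at 4.17 to 4.67 FPKM in WT, 3.38 to 4.27 in CAMK and 3.57 to 4.88 in CX3CL1-ct, and the log2 difference between CX3CL1-ct and WT was -0.04 (95% interval -0.25 to 0.16). Col11a2 ranged from 1.04 to 4.27 FPKM and was highest in CX3CL1-ct 5, WT 2 and WT 3, the libraries that were also highest for striatal markers, and the part of those markers in it was not tested. Col2a1, the main collagen of cartilage, stood at 0.800 to 1.51 FPKM over all libraries, and Col27a1 at 0.483 to 1.35. Cartilage and bone markers other than collagens, 10 of 11 in the table, summed to 4.69 to 7.65 FPKM over all libraries, and none of 3 tested passed (smallest p for Lect1 and Acan).

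**Figure D3:**
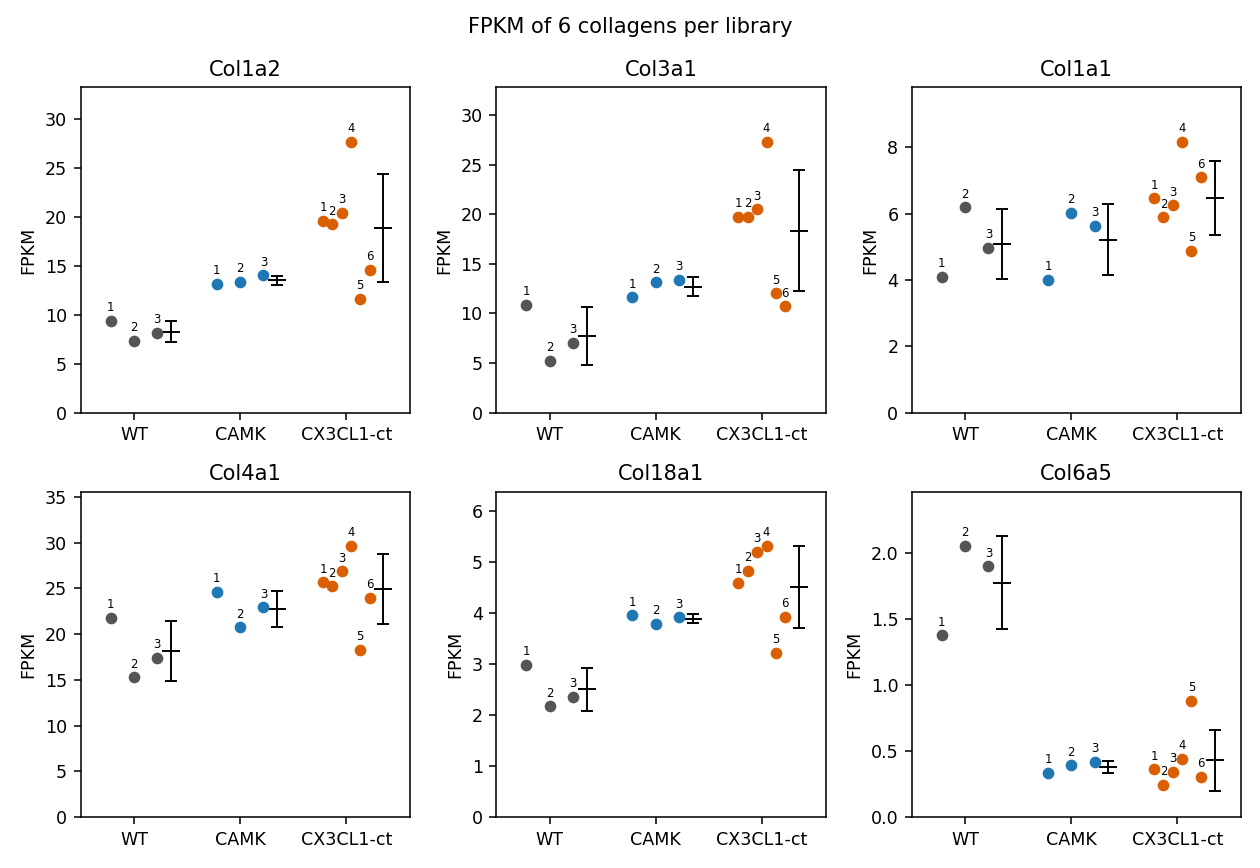
FPKM (y axis) of Col1a2, Col3a1, Col1a1, Col4a1, Col18a1 and Col6a5 by group (x axis), with 1 point per library, numbered by replicate, and the mean ± SD beside the points. Col1a2 was 7.33 to 9.39 in WT and 11.7 to 27.7 in CX3CL1-ct, and Col6a5 was 1.38 to 2.06 in WT and at most 0.884 elsewhere.

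Of the type IV chains, Col4a1 and Col4a2 had the highest levels, and none of the tested chains passed the threshold. In CX3CL1-ct the mean of Col4a2 (17.4 FPKM) lay below those of Col1a2 (18.9) and Col3a1 (18.3), while in WT it was 13.4, above both. Col4a1, at a mean of 22.7 FPKM over the 12 libraries the highest of all 44 collagens, stood at 21.8, 15.3 and 17.4 in WT, 24.6, 20.7 and 22.9 in CAMK and 18.3 to 29.6 in CX3CL1-ct (median 25.4). WT 1 lay above CAMK 2 and CX3CL1-ct 5, so the groups overlapped. The log2 difference of CX3CL1-ct from WT was 0.44 (SE 0.14, adjusted p = 0.213), and it passed without CX3CL1-ct 5 (0.52, adjusted p = 0.0475). Leaving out WT 2 gave 0.33 (adjusted p = 0.6065). Col4a2 stood at 16.3, 11.6 and 12.2 FPKM in WT, 18.5, 15.4 and 16.3 in CAMK and 13.9 to 19.9 in CX3CL1-ct (log2 difference to WT 0.37, SE 0.12, adjusted p = 0.231). The ratio of Col4a1 to Col4a2 was 1.32 to 1.49 in all 12 libraries. Both chains were highest in CX3CL1-ct 4 and lowest in WT 2.

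The other type IV chains belong to trimers of more restricted membranes. Col4a5 stood at 1.88 to 3.18 FPKM in WT, 2.69 to 2.87 in CAMK and 2.45 to 4.70 in CX3CL1-ct, and Col4a6, its head-to-head neighbour on the X chromosome, at 0.543 to 1.07, 1.18 to 1.27 and 0.987 to 2.09. Their ratio was 1.88 to 3.45. Only 1 WT library reached 1 FPKM of Col4a6, so this gene passed the filter only with the driver groups, where it is high. Col4a3 and Col4a4, the chains of the kidney filter, stayed at 0.122 to 0.403 and 0.0509 to 0.283 FPKM and were not tested. Log2 differences of the 4 tested type IV chains were 0.34 to 0.44 for CX3CL1-ct against WT, 0.16 to 0.32 for CAMK against WT and 0.05 to 0.18 for CX3CL1-ct against CAMK. Endothelial markers summed to 88.0 to 120 FPKM in WT, 99.6 to 123 in CAMK and 98.1 to 137 in CX3CL1-ct, with 0 of 12 called in any comparison and the smallest p for Tek (log2 difference to WT in CX3CL1-ct 0.39, adjusted p = 0.109) and Cdh5 (0.53, 0.157). They were lowest in WT 2 and highest in CX3CL1-ct 4, as type IV collagens were, and their part in these differences was not tested.

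Col6a5 (chromosome 9, 105856078 to 105960643), a type VI chain outside the common α1, α2, α3 trimer, was called lower in both comparisons with WT. It stood at 1.38, 2.06 and 1.90 FPKM in WT, 0.335, 0.393 and 0.422 in CAMK and 0.247 to 0.884 in CX3CL1-ct (median 0.352). The highest library with the driver was CX3CL1-ct 5, still below all WT. Against WT, the log2 difference was -0.96 in CX3CL1-ct (SE 0.14, adjusted p = 0.0121) and -0.999 in CAMK (SE 0.17, adjusted p = 0.0271), while CX3CL1-ct differed from CAMK by 0.04 (95% interval -0.28 to 0.35, adjusted p = 0.982). With a pseudocount of 0.1 these differences were -1.90 in CX3CL1-ct and -1.95 in CAMK, and the ratios of the mean FPKM to that of WT were 0.242 and 0.215. WT 2, WT 3 and CX3CL1-ct 5, the libraries with the highest sums of striatal markers, were also the highest of their groups for Col6a5. The 10 striatal markers, all tested, summed to 34.2 to 272 FPKM in WT, 44.8 to 67.7 in CAMK and 37.9 to 205 in CX3CL1-ct, with a median log2 difference from WT of -1.07 in CX3CL1-ct (0 of 10 positive) and -1.2003 in CAMK (1 of 10), none past the threshold. WT 1, which had the lowest striatal sum of the 12 libraries, stood at 1.38 FPKM of Col6a5, above all 9 libraries with the driver. Both calls ended without WT 2 (adjusted p = 0.122 for CX3CL1-ct and 0.132 for CAMK), without WT 3 (0.110 and 0.134) and with CX3CL1-ct 1 to 3 averaged (0.0974 and 0.0794). The call in CAMK also ended without CAMK 1, 2 or 3 (0.0933, 0.109 and 0.111), without CX3CL1-ct 3 (0.0520), with a pseudocount of 0.1 (0.0690) and with only the groups compared in the fit (0.0581). Col6a4 and Col6a6, its close relatives, stayed at 0.120 to 0.746 and 0.0307 to 0.134 FPKM.

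The chains of the common type VI filament, which anchors cells to the matrix, did not share one pattern. Col6a2 stood at 2.81, 2.20 and 2.46 FPKM in WT, 5.06, 2.89 and 3.91 in CAMK and 3.67 to 7.69 in CX3CL1-ct, and Col6a3 at 1.17, 1.10 and 1.12, 1.71, 1.67 and 1.69, and 1.44 to 2.72. In both genes all WT libraries lay below all others. The log2 difference between CX3CL1-ct and WT was 0.74 for Col6a2 (SE 0.18, adjusted p = 0.116) and 0.60 for Col6a3 (SE 0.12, adjusted p = 0.0605; 0.91 with a pseudocount of 0.1), and Col6a3 passed without CX3CL1-ct 6 (0.68, adjusted p = 0.00427). That of Col6a3 was 0.59 without WT 2 (adjusted p = 0.262). Col6a1 stood at 4.52, 7.32 and 6.40 FPKM in WT, 5.26, 3.77 and 3.81 in CAMK and 4.14 to 8.98 in CX3CL1-ct, with WT and CX3CL1-ct overlapping (log2 difference 0.11, adjusted p = 0.851). Between CX3CL1-ct and CAMK it had the smallest p of the collagens (0.53, 95% interval 0.11 to 0.95, adjusted p = 0.725). The ratio of Col6a1 to Col6a2 was 1.61 to 3.33 in WT and 0.963 to 1.60 in the 9 libraries with the driver.

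Col18a1 and Col15a1 carry heparan or chondroitin sulphate chains in basement membranes. Col18a1, the source of endostatin, stood at 2.99, 2.17 and 2.36 FPKM in WT, 3.96, 3.79 and 3.92 in CAMK and 3.22 to 5.31 in CX3CL1-ct. All WT libraries were lowest, and the log2 difference between CX3CL1-ct and WT was 0.65 (SE 0.13, adjusted p = 0.0522), just outside the threshold. It passed without CX3CL1-ct 5 (0.72, adjusted p = 0.00737), with a pseudocount of 0.1 (adjusted p = 0.0472) and with a robust prior (0.0472). Without WT 2 the log2 difference was 0.58 (adjusted p = 0.265). In CAMK against WT it was 0.49 (adjusted p = 0.193). Col15a1 stood at 2.13 to 3.65 FPKM over all libraries, with a log2 difference of 0.06 between CX3CL1-ct and WT (95% interval -0.20 to 0.33).

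Of the remaining collagens, the 2 with the highest levels differed in direction: the mean of Col9a3 was highest in WT and that of Col26a1 lowest. Col9a3, a fibril-associated chain, stood at 10.8, 9.34 and 10.7 FPKM in WT, 7.49, 7.86 and 8.18 in CAMK and 6.51 to 9.07 in CX3CL1-ct. All WT libraries were above all others, with a log2 difference of -0.29 in CX3CL1-ct (SE 0.09, adjusted p = 0.204) and -0.35 in CAMK (SE 0.10, adjusted p = 0.190). Tcfl5 overlaps its exons on the opposite strand. Col26a1 stood at 6.77, 5.33 and 5.58 FPKM in WT, 7.56, 8.83 and 8.13 in CAMK and 6.78 to 10.4 in CX3CL1-ct. The lowest CX3CL1-ct library lay just above WT 1, and the log2 difference was 0.45 (SE 0.11, adjusted p = 0.104), which passed without CX3CL1-ct 6 (0.50, adjusted p = 0.0463). With WT 2 left out it was 0.39 (adjusted p = 0.393).

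Of the transmembrane and fibril-associated members, Col23a1 and Col12a1 had among the smallest p in the comparison with CAMK, without passing. Col23a1 stood at 1.98 to 2.93 FPKM in WT, 2.75 to 2.98 in CAMK and 2.998 to 4.78 in CX3CL1-ct, the only collagen with all CX3CL1-ct libraries above all CAMK libraries (2.78% of all genes were so), by a log2 difference of 0.31 (95% interval -0.003 to 0.62, adjusted p = 0.775). Col12a1 stood at 2.38 to 2.47, 2.14 to 2.32 and 2.19 to 3.60 FPKM (0.26 against CAMK, adjusted p = 0.731). Col25a1, a neuronal membrane collagen found with amyloid plaques, ranged from 3.04 to 11.9 FPKM, and its highest libraries were CX3CL1-ct 5 (11.9), WT 2 (8.54) and WT 3 (7.01), which also held the most striatal marker RNA. The part of that tissue in it was not tested. Col19a1, a fibril-associated chain, was lowest in CX3CL1-ct 5 (1.28) and highest in WT 1 (4.92). Col8a2, a short-chain collagen, reached 4.56 FPKM in WT 1 and 0.860 to 2.47 elsewhere, and WT 1 was also the library with the most choroid plexus marker RNA (2388), whose part was not tested. The other tested members, Col8a1, Col9a2 and Col16a1, stood at 1.02 to 2.50, 2.30 to 4.98 and 1.91 to 3.20 FPKM.

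The remaining 15 genes were below the filter and had no library at an FPKM of 1: Col4a3, Col4a4, Col5a3, Col6a4, Col6a6, Col7a1, Col9a1, Col10a1, Col13a1, Col14a1, Col17a1, Col20a1, Col22a1, Col24a1 and Col28a1. The highest of these, Col9a1, stood at 0.525 to 0.883 FPKM, and the lowest, the hemidesmosome collagen Col17a1, at 0.0196 to 0.111. Col9a1 shares a trimer with Col9a2 and Col9a3, whose means over the 12 libraries were 3.33 and 8.65.

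By family, the tested members of CX3CL1-ct against WT had a median log2 difference of 0.30 in fibrillar (5 of 9 positive), 0.40 in type IV (4 of 4) and 0.13 in other collagens (10 of 16), beside 0.04 over all genes tested (62.7% positive). In CAMK against WT these medians were 0.03 (5 of 9), 0.30 (4 of 4) and -0.01 (8 of 16), beside 0.00 and 50.5% positive over all genes. Some medians moved with 1 library left out. In CX3CL1-ct against WT, that of fibrillar members was 0.17 without WT 1, and that of other collagens 0.08 without CX3CL1-ct 4 and 0.22 without CX3CL1-ct 6. In CAMK against WT, the fibrillar median was -0.06 without CAMK 2, -0.02 without CAMK 3, 0.01 without WT 1, 0.16 without WT 2 and 0.18 without CAMK 1, and the type IV median 0.18 without WT 2. In CX3CL1-ct against CAMK they were 0.12 (8 of 9), 0.14 (4 of 4) and 0.11 (12 of 16), beside 0.04 and 63.2% positive. Over all 44 genes without the filter the median was 0.09 for CX3CL1-ct against WT, 0.01 for CAMK against WT and 0.06 for CX3CL1-ct against CAMK. For the 6 type IV genes it was 0.35 (4 of 6 positive), 0.22 (4 of 6) and 0.08 (5 of 6). The tested type IV members include Col4a6 and the tested other collagens Col6a5, so their medians and counts are not independent of the filter. Tested fibrillar members ran from -0.22 (Col11a2) to 1.14 (Col3a1) in CX3CL1-ct against WT, and tested type IV members from 0.34 to 0.44. With all CX3CL1-ct libraries above all WT there were 7 of the 29 (Col1a2, Col5a2, Col6a2, Col6a3, Col18a1, Col23a1 and Col26a1), against 4.67% of all genes, and 2 lay wholly below (Col9a3, and Col6a5, which the filter kept through WT alone), against 1.38%. For CAMK and WT, 8 lay wholly above, against 9.22% of all genes: Col1a2, Col3a1, Col5a2, Col6a2, Col6a3, Col18a1, Col26a1 and Col4a6. Those wholly below were 4, against 8.80%: Col2a1, Col9a3, Col12a1 and Col6a5. The filter kept Col4a6 only with the driver groups and Col6a5 through WT alone. Nothing is read from Col4a6 and Col6a5 against these shares. For CX3CL1-ct and CAMK, Col23a1 lay wholly above and 0 wholly below, against 2.78% and 0.527%.

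**Figure D4:**
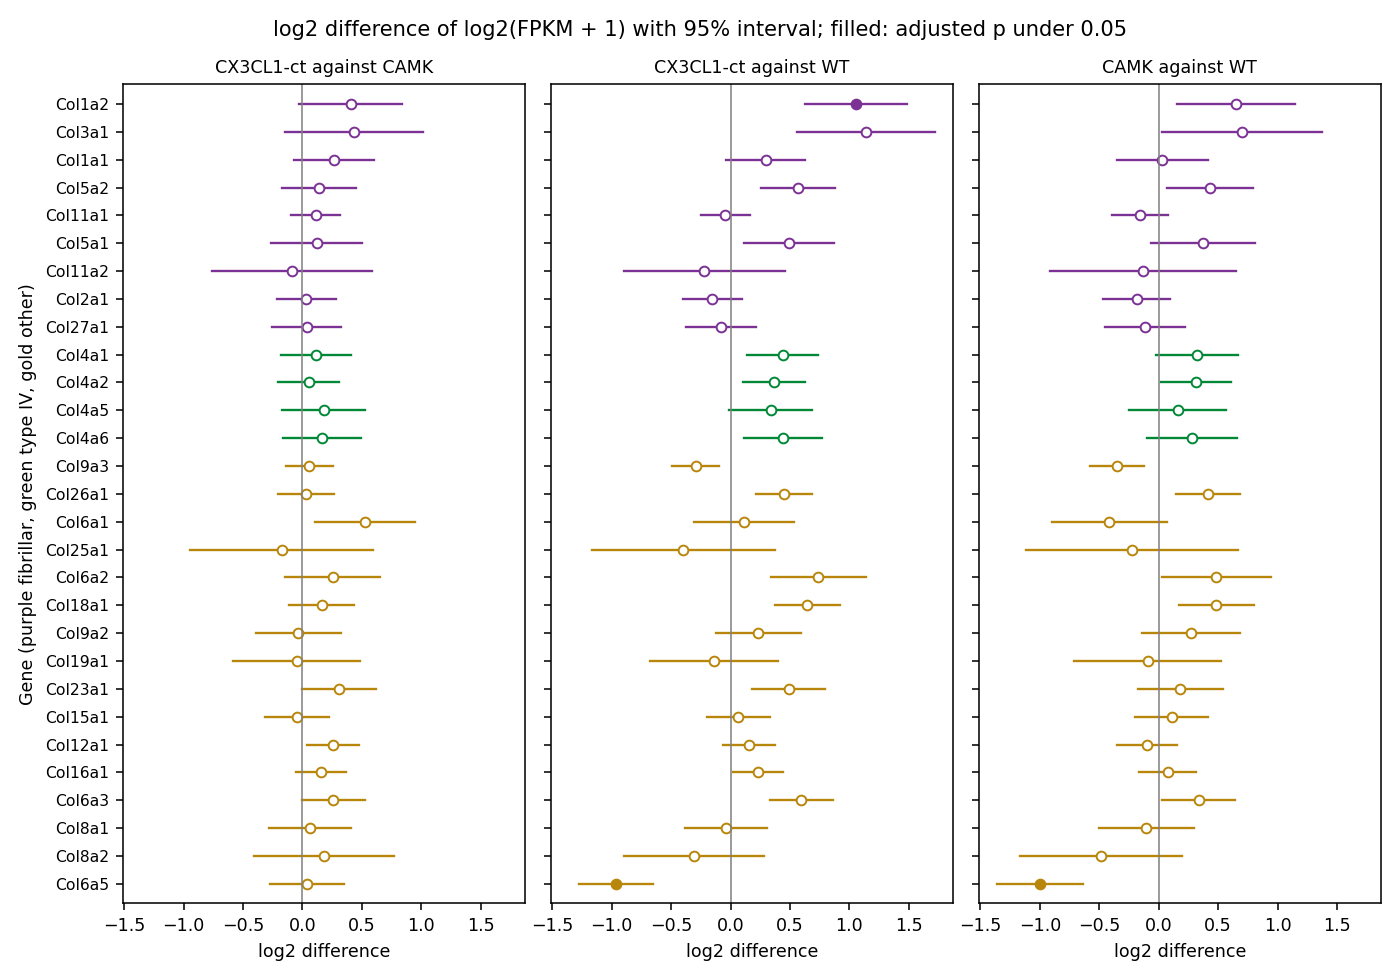
Difference in log2(FPKM + 1) with its 95% interval (x axis) of the 29 tested collagens (y axis, coloured by family) in 3 comparisons, with filled points past an adjusted p of 0.05. Col1a2 (1.06) and Col6a5 (-0.96) are filled in CX3CL1-ct against WT, Col6a5 (-0.999) in CAMK against WT, and none in CX3CL1-ct against CAMK.

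The highest and lowest values fell often in the same libraries. CX3CL1-ct 4 was highest for 15 of the 29 tested collagens, among them 5 of 9 fibrillar and 4 of 4 type IV genes, and WT 2 was lowest for 14, among them 4 fibrillar and 4 type IV genes. CX3CL1-ct 5 was the lowest CX3CL1-ct library for Col1a2, Col4a1, Col4a2 and Col18a1 and the highest for Col25a1 and Col11a2. Markers of meninges and fibroblasts other than collagens (15 of 15 in the table, 5 of them also on another list) summed to 96.0 to 104 FPKM in WT, 89.0 to 111 in CAMK and 110 to 153 in CX3CL1-ct, and the highest library was again CX3CL1-ct 4. Of 13 tested, 4 rose in CX3CL1-ct against WT, beside 0.200% of all genes, and 0 were called in the other comparisons. With the replicate block 5 rose in CAMK against WT, beside 1.87% of all genes (Ogn, Slc6a13, Slc22a6, Crabp2 and Slc6a20a, adjusted p 0.0235 to 0.0482). Slc6a13, a GABA transporter, stood at 1.31 to 3.58 FPKM in WT and 6.13 to 13.6 in CX3CL1-ct (log2 difference 1.69, adjusted p = 0.0156), and Aldh1a2, which makes retinoic acid, at 0.832 to 1.91 and 3.18 to 6.92 (1.41, adjusted p = 0.0164). Both calls ended without WT 2 (0.129 and 0.135) and without WT 3 (0.110 for both). Slc22a6, an organic anion transporter, stood at 0.605 to 0.994 FPKM in WT and 2.08 to 5.64 in CX3CL1-ct (1.38, adjusted p = 0.0408), a call that ended without any 1 WT library, without CAMK 3 and without CX3CL1-ct 1, 2 or 3 (adjusted p 0.0727 to 0.220). An FPKM of 1 was reached by 2 WT libraries for Aldh1a2 and by 0 for Slc22a6, so both passed the filter only with the groups where they are high, and their calls are not independent of it. The count of 4 holds both genes, and the count of 5 with the block holds Slc22a6. Neither count is therefore read against the share of all genes beside it. Pericyte and smooth muscle markers summed to 64.0 to 69.7, 65.2 to 70.8 and 61.6 to 88.3, with the highest value in CX3CL1-ct 4. None of 9 tested passed, with the smallest p for Anpep (log2 difference to WT in CX3CL1-ct 0.44, adjusted p = 0.156) and Acta2 (1.04, 0.205). The part of these cell types in the collagen differences was not tested.

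**Figure D5:**
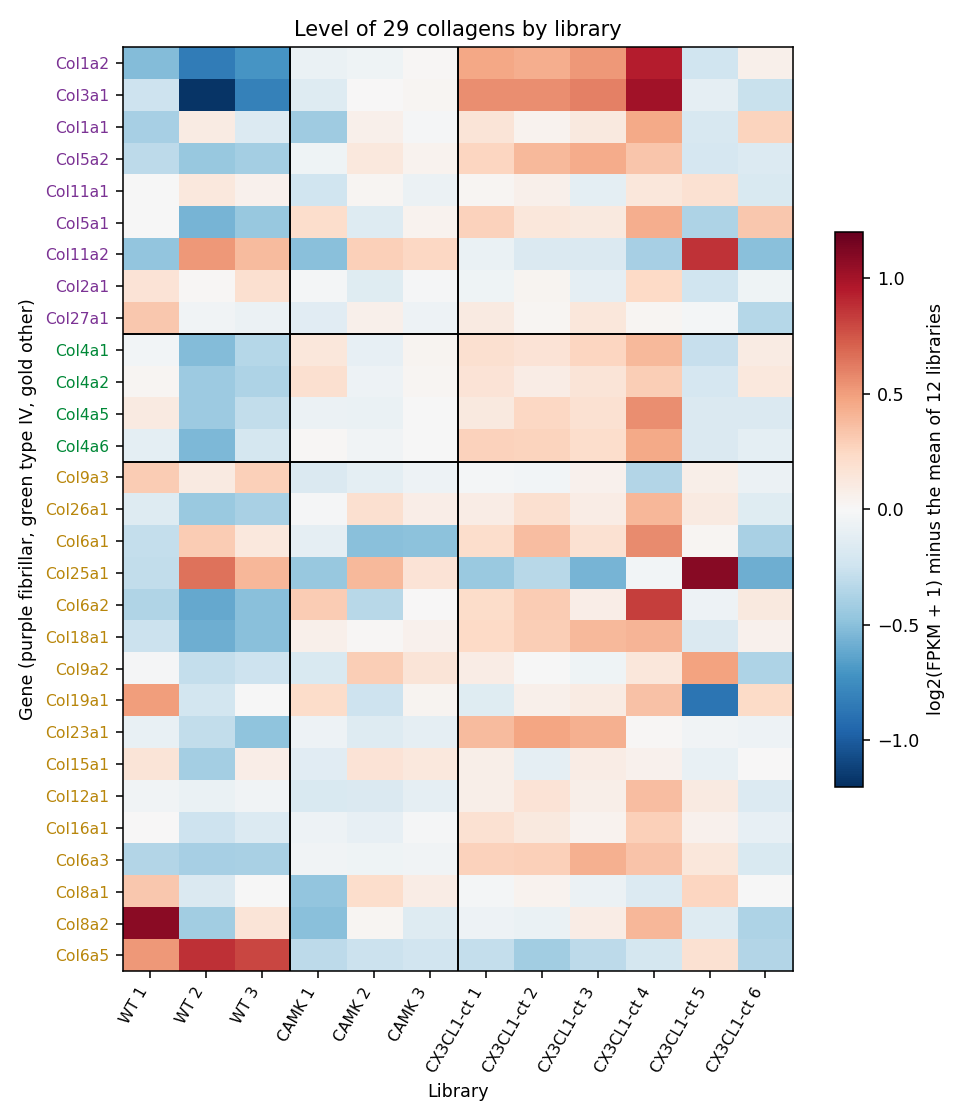
Level of the 29 tested collagens (rows, by family) in each library (columns) as log2(FPKM + 1) minus the mean of the 12 libraries (colour scale cut at ±1.2 in the drawing). CX3CL1-ct 4 is highest for 15 genes and WT 2 lowest for 14.

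Genes that act on collagens were set beside them from lists of partners. Of 19 tested genes of folding and modification, P4ha2 changed: this subunit of prolyl 4-hydroxylase, which makes the hydroxyproline that holds the helix together, stood at 3.27, 3.11 and 3.23 FPKM in WT, 1.91, 2.05 and 1.81 in CAMK and 1.68 to 2.35 in CX3CL1-ct. It fell in both comparisons with WT, by 0.51 on the log2 scale in CX3CL1-ct (adjusted p = 0.0222) and by 0.53 in CAMK (adjusted p = 0.0445), opposite in sign to Col1a2. Of all genes, 0.254% and 0.273% were called lower in these comparisons. The call in CX3CL1-ct ended without WT 1, 2 or 3 (0.0642, 0.124 and 0.143) and without CX3CL1-ct 2 or 3 (0.0647 and 0.0561), and that in CAMK without any of these 5 libraries, without CAMK 1, 2 or 3 and without CX3CL1-ct 4, with adjusted p between 0.0505 and 0.202. The same list had a median log2 difference of 0.06 in CX3CL1-ct against WT, with 14 of 19 positive, beside 0.04 and 62.7% positive over all genes.

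Of 10 tested genes of procollagen processing and cross-linking, Lox, the lysyl oxidase that starts cross-links between fibrillar chains, rose in CX3CL1-ct against WT. In that comparison 0.200% of all genes were called higher. Lox stood at 0.892, 0.765 and 0.861 FPKM in WT, 1.25 to 1.64 in CAMK and 1.59 to 2.28 in CX3CL1-ct (log2 difference 0.66, or 1.09 with a pseudocount of 0.1, SE 0.11, adjusted p = 0.0196). Of 11 tested fibril-binding proteoglycans and glycoproteins, 3 of whose list are also on the meningeal list, Fmod rose: fibromodulin, which binds type I fibrils, stood at 1.10, 0.610 and 0.552 FPKM in WT, 1.92 to 3.15 in CAMK and 1.87 to 5.21 in CX3CL1-ct (log2 difference 1.24, or 1.94 with a pseudocount of 0.1, SE 0.21, adjusted p = 0.0267). In both genes WT lay below all other libraries, and at most 1 WT library reached an FPKM of 1, so both passed the filter only through the groups where they are high, and their calls are not independent of it. Neither gene is read against the share of all genes. The calls ended without WT 2 (0.141 for Lox and 0.173 for Fmod), WT 3 (0.110 and 0.160), CX3CL1-ct 1 (0.0555 and 0.0695) or CX3CL1-ct 2 (0.0540 and 0.0764), and that of Fmod also without CX3CL1-ct 3 (0.0693) or CAMK 3 (0.0539).

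None of the other partners passed in any comparison without the replicate block. With it, Fmod (adjusted p = 0.0227), Ogn (0.0235) and the protease Mmp16 (0.0210) were higher in CAMK than in WT, and Fn1, which encodes fibronectin, was lower (0.0383). Of all genes, 1.87% were called higher and 1.10% lower with the block, and Fmod, which the filter kept through the groups where it is high, is not read against them. In CX3CL1-ct against WT, 62.7% of all genes were positive, with a median of 0.04. Of 14 tested basement membrane partners of type IV, 12 were positive in CX3CL1-ct against WT (median 0.23), with Lama1, a laminin chain, at 1.43 to 1.89 FPKM in WT and 2.07 to 3.20 in CX3CL1-ct (adjusted p = 0.0853), and Nid1, which links laminin to type IV, at 8.27 to 9.41 and 9.58 to 14.4 (adjusted p = 0.0909). Of 7 tested collagen receptors, 4 were positive (median 0.01), with Mrc2, an uptake receptor, at 0.883 to 1.27 and 1.51 to 2.88 FPKM and the integrin chain Itgb1 at 35.8 to 42.3 and 33.2 to 40.3. Of 8 tested collagen-degrading proteases and inhibitors, 7 were positive (median 0.19), with Mmp16 at 24.9 to 27.2 and 28.6 to 33.1 FPKM and Mmp2, which cuts type IV, at 1.82 to 3.08 and 2.77 to 4.92. Against CAMK, 0 genes of all 6 partner lists passed, beside 0.0606% of all genes, and the medians were 0.04 to 0.19, beside 0.04 over all genes.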

How the data were processed

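Total RNA depleted of ribosomal RNA was sequenced as stranded paired-end libraries, per the labels' protocols. The authors deposited 1 table of FPKM per gene and library. The submitters' processing notes name TopHat, Bowtie, Cufflinks, Cuffdiff and mm10; versions, the scaling between libraries and the use of strand in counting are not given in the sources used here. The sample titles give the group and the replicate number. The 16503 genes that reached 1 FPKM in 3 or more of the 12 libraries were fitted as log2(FPKM + 1) with limma 3.58.1 (R 4.3.3; eBayes with trend, 3 group means) and two-sided p-values adjusted by Benjamini-Hochberg over all genes tested. In place of counts, which the table does not hold, depth was estimated from the FPKM of single fragments in short genes, assuming 180 nt fragments. The limma fit was tested on simulated data, for CX3CL1-ct against CAMK with rises added to some genes. Tables and figures were made with Python 3.11.15, pandas 2.3.3, numpy 2.4.6 and matplotlib 3.10.9. Gene positions, coding sequences and overlapping exons come from GENCODE M21 (GRCm38.p6).

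The members and gene lists were chosen with earlier results of these data known. Collagens named with values are those past the threshold, the 6 with the smallest p per comparison, the 6 highest per family and the type I and type IV pairs; of other lists that are described, up to 3 past the threshold or, where none passed, the 2 with the smallest p. Marker lists of other brain cells, which no sentence sets beside a collagen, are not described. Col2a1, Col6a4, Col6a6, Col8a1, Col8a2, Col9a1, Col9a2, Col11a2, Col15a1, Col16a1, Col17a1, Col19a1 and Col27a1 are given beyond that rule, to account for every member, and were chosen after their values were seen. To see whether replicate numbers pair libraries, each library's deviation from its group mean was correlated, over genes, with that of the library of the same number. For CAMK with WT this gave 0.236, 0.163 and 0.1003, all above 0.1, so there the replicate number was also fitted as a block. CX3CL1-ct gave 0.110, -0.130 and -0.0912 with CAMK, and 0.114, -0.0622 and 0.0106 with WT, and was taken as unpaired. The block was still fitted over all 12 libraries, so CX3CL1-ct 1 to 3 shared the blocks of WT and CAMK 1 to 3. CX3CL1-ct 4, 5 and 6 each stood alone in a block, which fits them exactly, so they add nothing to a difference or its spread. Differences of CX3CL1-ct with the block thus come from CX3CL1-ct 1 to 3 alone. Calls with the block in CAMK against WT rest on a spread that includes CX3CL1-ct 1 to 3. Alternatives were another pseudocount, no filter, median-of-ratios scaling, a robust prior, only the groups compared, the block, each library left out and, added after the data were seen, CX3CL1-ct 1 to 3 averaged.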

Additional observations from a re-analysis of the deposited data

Results flagged for a closer look

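In the group of 6 CX3CL1-ct libraries, 6 of 32 tested values had a library far from the other 5 by Dixon's criterion, which chance alone gives in about 1 of 20. In CX3CL1-ct 5, Col25a1 stood at 11.9 FPKM (3.04 to 4.92 in the others), Col11a2 at 4.27 (1.04 to 1.74) and Col6a5 at 0.884 (0.247 to 0.441). In CX3CL1-ct 4, Col6a2 stood at 7.69 FPKM (3.67 to 5.02) and Col9a3 at 6.51 (8.12 to 9.07). In CX3CL1-ct 6, Col27a1 stood at 0.483 FPKM (0.852 to 1.07). CX3CL1-ct 5 also had the lowest sum of hippocampal markers (182) and, within its group, the highest of striatal markers (205), and CX3CL1-ct 4 the highest of meningeal markers (153), whose part in these values was not tested.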

How the results depend on the processing

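The number of collagens past the threshold depended on the setting in each comparison. For CX3CL1-ct against WT it was 2, and 1 with no filter, with median-of-ratios scaling or with only the groups compared, 0 with CX3CL1-ct 1 to 3 averaged and 0 to 5 with 1 library left out. It was 0 without WT 2 or WT 3 and 5 without CX3CL1-ct 5 or 6. For CAMK against WT it was 1, and 0 with a pseudocount of 0.1, with only the groups compared or with the libraries averaged, and 0 to 1 with 1 library left out. For CX3CL1-ct against CAMK it was 0 in all alternatives but the block. The replicate block, whose numbers do not pair CX3CL1-ct with the other groups, gave 9 for CX3CL1-ct against WT, 1 for CX3CL1-ct against CAMK (Col1a2, adjusted p = 0.0399) and 3 for CAMK against WT, and ended the call of P4ha2 in CX3CL1-ct against WT (0.0576). CX3CL1-ct 4, 5 and 6 each stood alone in a block. Block results of CX3CL1-ct thus rest on CX3CL1-ct 1 to 3, which lie closest together. Over all genes, the count was 10 for CX3CL1-ct against CAMK (9 to 171 over the alternatives), 75 for CX3CL1-ct against WT (26 to 540) and 59 for CAMK against WT (21 to 490), each highest with the block.

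The sign turned for Col1a1 in CAMK against WT without WT 1 (-0.0906), CAMK 2 (-0.0649) or CAMK 3 (-0.0244), and was at most 0.18 (0.1796) with 1 library left out, and for Col4a2 in CX3CL1-ct against CAMK without CAMK 2 (-0.0029), with at most 0.124 without another library. The median of the other collagens in CAMK against WT ran from -0.045 to 0.13 with 1 library left out. Leaving out the top member lowered the mean sums by construction: in the order WT, CAMK and CX3CL1-ct, fibrillar without Col1a2 to 28.2, 34.6 and 43.0, type IV without Col4a1 to 17.1, 21.1 and 22.6, and other without Col9a3 to 50.3, 51.4 and 58.6. With only the groups compared or with CX3CL1-ct 1 to 3 averaged, the calls of Slc6a13, Aldh1a2, Slc22a6, Lox, Fmod, P4ha2 and Bcl11b against WT also ended, with the libraries averaged that of Spock1 ended too (0.0894), and that of P4ha2 in CAMK against WT ended with a pseudocount of 0.1 (0.0532) and with no filter (0.0566). The causes were not tested. The table holds no counts, so no interval for counting error is given. Members with no library at an FPKM of 1 entered a fit only in the setting without the filter.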
